A study of Homo sapiens with 12 samples.

Results

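The mitochondrial ribosome, or mitoribosome, translates the proteins that mitochondrial DNA still encodes, which are core subunits of the respiratory chain and of ATP synthase. Its ribosomal RNAs come from the mitochondrial genome, whereas its proteins are encoded by nuclear MRPL (large subunit) and MRPS (small subunit) genes, translated in the cytosol and imported. Some of these proteins have a homolog in the bacterial ribosome and the others are found in mitochondria only. The mRNA levels of these genes were followed in U87 cells, an established human glioblastoma line, after treatment with steroids. The members were the array rows whose only gene symbol was MRPL or MRPS followed by a number. A total of 78 rows matched, 1 row of a pseudogene was left out, and each gene was represented by the row with the highest mean, which gave 73 genes of the 18417 genes that had a row of their own. RefSeq lists 77 coding genes with such names, and the other 4 (MRPS24, MRPS28, MRPL51 and MRPS6) had no row of their own and were not analysed here. Of the 73 members, 50 belong to the large subunit, including MRPS18A and MRPS30 despite their names, and 23 to the small one, while 45 have a bacterial homolog and 28 are found in mitochondria only.

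The cells were kept in medium without phenol red and with charcoal-stripped serum, and were then treated for 72 h with vehicle (V, DMSO), 10 nM 3α-THP (allopregnanolone, a reduced metabolite of progesterone), 10 nM P4 (progesterone) or 100 nM F (finasteride, which inhibits the reductase that starts the conversion of progesterone into 3α-THP). The sources give different concentrations of DMSO, and the arrays do not show which was used. Total RNA of each treatment was hybridized to 3 Affymetrix Human Gene 1.0 ST arrays, 12 in all. The labels number them as biological replicates 1 to 3, and these numbers were taken as those of independent experiments with 1 cell line. The 3 V arrays are the control of all 3 steroids, so that the comparisons with V are not independent of each other. Values are log2 signals per row, in which a difference of 1 is a doubling. The median of the 21214 rows with a gene name lay between 6.35 and 6.40 on every array. The number of arrays limits the precision, and the 95% interval of a member's log2 fold change reached 0.24 (median) to either side. All intervals are from the fit without pairing of the experiments. Among markers of the line, VIM, CD44, CAV1, CHI3L1 and TNC lay above the 95th percentile of the rows. GFAP lay at percentile 46.2 and NES at 41.9, so these did not stand out. The 3 leukocyte markers lay at percentiles 3.91 (PTPRC) to 29.4 (CD14), the 3 epithelial ones at 10.1 (EPCAM) to 24.5 (KRT5) and the 3 endothelial ones at 14.2 (PECAM1) to 28.5 (CDH5). Of the neuronal markers, SYT1 lay at percentile 27.9, RBFOX3 at 42.4 and SNAP25 at 86.9.

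Because the proteins of 1 organelle ribosome are encoded by genes scattered over the nuclear genome, their promoters are shown first. The 250 bases before the annotated start were taken from RefSeq (GRCh38.p14) for 66 of the 73 members, and there was no entry for MRPL10, MRPL13, MRPL15, MRPL2, MRPL21, MRPL23 and MRPL35. The 4 printed belong to members among the 3 with the smallest p for a lower value in a comparison with V: MRPL43 and MRPS27 (3α-THP), MRPL33 (P4) and MRPS12 (F). They are written 5′ to 3′ along the strand of the gene, at chr10:100987498-100987747 (minus strand, MRPL43), chr5:72320241-72320490 (minus strand, MRPS27), chr2:27771469-27771718 (plus strand, MRPL33) and chr19:38930694-38930943 (plus strand, MRPS12). Capitals mark CCGGAAG, the core of the ETS factor GABPA (also called NRF2), or TGACG, the short site of CREB1, on the strand shown or its complement.
MRPL43: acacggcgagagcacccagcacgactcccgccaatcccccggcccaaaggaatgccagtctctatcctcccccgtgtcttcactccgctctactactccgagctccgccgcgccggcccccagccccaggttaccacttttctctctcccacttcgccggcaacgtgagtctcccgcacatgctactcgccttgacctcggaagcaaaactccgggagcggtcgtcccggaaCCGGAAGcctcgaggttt
MRPS27: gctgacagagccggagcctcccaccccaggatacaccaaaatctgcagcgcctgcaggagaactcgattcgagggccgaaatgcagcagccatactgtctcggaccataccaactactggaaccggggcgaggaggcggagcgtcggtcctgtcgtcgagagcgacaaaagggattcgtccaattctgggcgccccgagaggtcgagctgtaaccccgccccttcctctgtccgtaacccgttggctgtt
MRPL33: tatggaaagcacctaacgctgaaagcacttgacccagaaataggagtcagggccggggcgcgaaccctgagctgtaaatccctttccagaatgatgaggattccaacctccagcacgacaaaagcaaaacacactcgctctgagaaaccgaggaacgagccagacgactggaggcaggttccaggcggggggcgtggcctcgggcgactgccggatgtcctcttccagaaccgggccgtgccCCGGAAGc
MRPS12: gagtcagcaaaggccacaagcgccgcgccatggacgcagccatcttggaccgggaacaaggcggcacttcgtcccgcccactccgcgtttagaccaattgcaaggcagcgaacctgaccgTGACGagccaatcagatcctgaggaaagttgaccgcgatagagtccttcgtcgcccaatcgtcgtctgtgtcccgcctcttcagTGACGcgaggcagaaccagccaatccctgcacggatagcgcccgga
MRPL43 and MRPL33 hold 1 ETS core each close to the start, MRPS12 holds 2 short sites of CREB1, and MRPS27 has neither motif in this window.

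Among the motifs searched, on both strands, the ETS core had the widest gap in percentage points between the members and all coding genes. The coding genes include the members. CCGGAAG lay in 22 of the 66 member promoters (33.3%) and in 11.8% of 15843 promoters of coding genes. The site of NRF1 (GCGCA and GCGC with 1 base of any kind between them), a regulator of nuclear genes for mitochondrial proteins, lay in 8 (12.1%, against 7.65%), and the YY1 site (AAGATGGCG) in 3 (4.55%, against 0.751%), in MRPL32, MRPL36 and MRPL52. The shares were 53.0% against 56% for the SP1 box GGGCGG and 28.8% against 34.5% for the NFY box CCAAT. They were 7.58% against 7.23% for the CEBP letters TTGCNNAA and 27.3% against 25.6% for the short CREB1 site TGACG. The full CREB1 site TGACGTCA, which contains the short one, lay in 0 of the 66 and in 2.32% of coding promoters, and TATAAA in 3.03% against 9.23%. These matches describe letters in a window, they were not tested, and they show no binding.

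**Figure D1:**
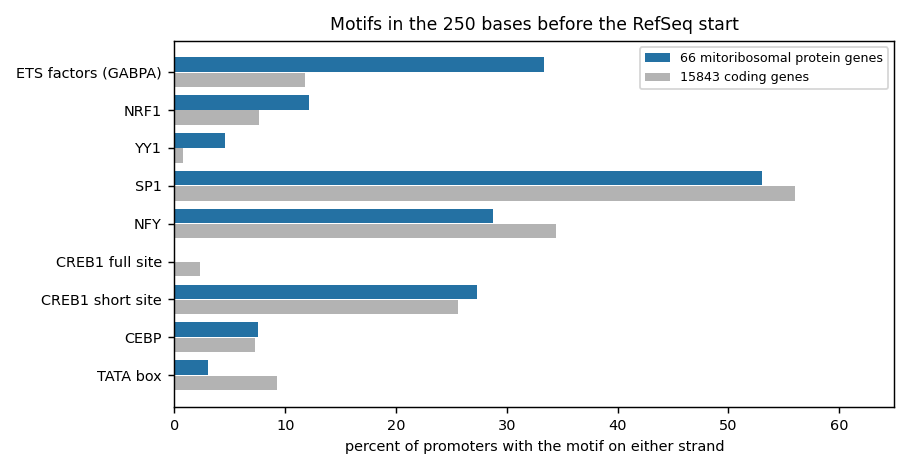
Percent of promoters (horizontal axis) that hold each motif (vertical axis) on either strand, for 66 mitoribosomal protein genes (blue) and 15843 coding genes (grey). The ETS core reaches 33.3% of the member promoters and 11.8% of the coding ones.

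Mean signals of the members over the 12 arrays ran from 5.30 for MRPS18C, a small-subunit protein, to 10.3 for MRPL36, a large-subunit protein, and most of the 73 lay above the middle of the tested rows. MRPS15 (9.88) and MRPL17 (9.38) were next at the bright end, and MRPL1 (5.34) and MRPL13 (5.43) at the dim end. CDKN2A and CDKN2B, which are deleted in U87, had means of 5.05 and 5.61 on the same arrays. The 3 dimmest members and MRPL52 (5.54) lay within this range of rows for genes without mRNA. Their differences are read with that limit. A row's signal depends on its probes as well as on the mRNA, so no order of expression was read from these levels. Within a member the 12 arrays differed little. The range from the lowest to the highest array was between 0.20 (MRPS25) and 0.79 (MRPL35) on the log2 scale.

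With 3α-THP the mRNAs of the mitoribosome stayed close to V. None of the 73 members passed the threshold (more than a 1.5-fold change and an unadjusted p under 0.05), which 0.679% of the 21214 tested rows passed in either direction. At an unadjusted p under 0.05 alone, 1 member was lower and 0 were higher, beside 4.09% and 3.25% of the tested rows. The member was MRPL23, whose bacterial homolog lies at the exit of the peptide tunnel of the large subunit. MRPL23 had log2 values of 8.27, 8.09 and 8.29 on the V arrays and 7.97, 7.90 and 7.91 with 3α-THP, in the order of the experiments. Every 3α-THP array lay below every V array, while P4 (8.10, 8.22 and 7.99) and F (8.02, 8.23 and 8.04) overlapped with V. The log2 fold change of MRPL23 with 3α-THP was -0.29 (SE 0.092), a fold of 0.816, with a 95% interval from -0.49 to -0.093. Its unadjusted p in limma was 0.00757 and its Benjamini-Hochberg adjusted p was 0.514, so it did not pass the correction. In bulk RNA a lower level in every cell and fewer cells with the mRNA cannot be told apart.

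MRPL43 and MRPS27, both found in mitochondria only, were the other members with the smallest p among the negative values. MRPL43, a protein of the large subunit, had 7.0223, 7.0392 and 7.1165 with V and 6.9327, 6.7264 and 6.9998 with 3α-THP, a log2 fold change of -0.17 (SE 0.083, limma adjusted p = 0.695). MRPS27, a small-subunit protein of the pentatricopeptide repeat family, had 8.70, 8.83 and 8.73 with V and 8.61, 8.65 and 8.55 with 3α-THP, a difference of -0.15 (SE 0.078, limma adjusted p = 0.731). In both genes the 3α-THP arrays lay below all V arrays without overlap. The 3 with the smallest p among the positive values were MRPL1, MRPS25 and MRPS30. MRPL1, a protein of the stalk at the side of the large subunit and one of the dim rows above, had 5.274, 5.400 and 5.267 with V and 5.154, 5.771 and 5.496 with 3α-THP. The groups overlapped, with 1 of the 3α-THP arrays below and the other 2 above all V arrays, and the log2 fold change was 0.16 (SE 0.13). That value changed when single arrays were left out, which leaves the experiments unbalanced. It was 0.32 without 3α-THP replicate 1, where MRPL1 passed the unadjusted p, and 0.011 when replicate 2 of 3α-THP was left out. MRPL1 was highest in replicate 2 in all 4 treatments. MRPS25, a small-subunit protein, stood at 0.083 (SE 0.074) and MRPS30 at 0.15 (SE 0.13), and neither passed at the unadjusted p.

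**Figure D2:**
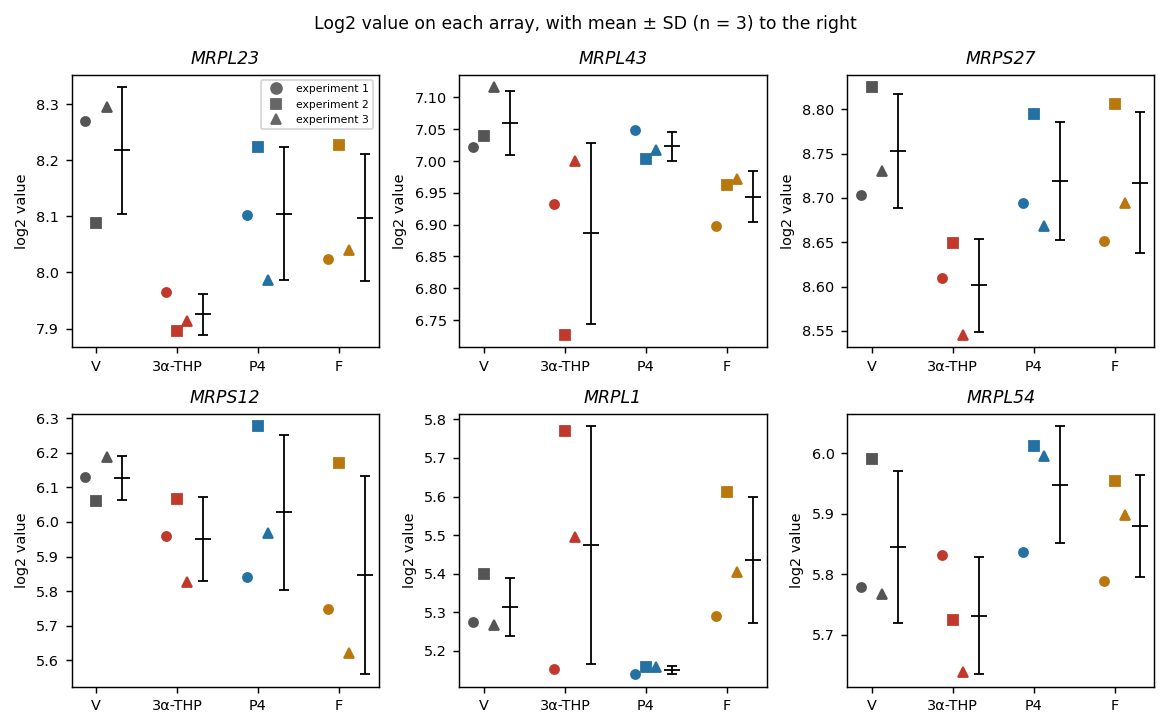
Log2 value on each array (vertical axis) for 6 members in the 4 treatments (horizontal axis), with the mean ± SD (n = 3) to the right of the points and the experiment given by the shape of the point. MRPL23 and MRPS27 have their 3α-THP arrays below all V arrays, while the F arrays of MRPS12 range from 5.62 to 6.17.

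Over all members the median log2 fold change with 3α-THP was -0.08, beside -0.03 over the tested rows, and the values ran from -0.29 to 0.16. The median of the members moved between -0.11 (no 3α-THP replicate 2) and -0.033 (no 3α-THP replicate 1) when 1 array was left out, and was -0.035 without V replicate 2. A negative value was found in 56 of the 73, beside 58.9% of the tested rows. The large subunit (median -0.08, 39 of 50 negative) and the small subunit (median -0.07, 17 of 23 negative) had similar values, as had members with a bacterial homolog (-0.07) and those found in mitochondria only (-0.09). The 3α-THP arrays lay below all V arrays in 6 members (MRPL16, MRPL23, MRPL38, MRPL43, MRPL49 and MRPS27) and above them in 0, beside 7.28% and 4.02% of the tested rows. In all 73 members the 95% interval stayed within a 1.5-fold change in either direction, which held for 92.2% of the rows. With the experiment number as a block, 5 members were lower at an unadjusted p under 0.05 (MRPL23, MRPL43, MRPL49, MRPS27 and MRPS34) and 0 higher, beside 7.91% and 5.49% of the rows, and the smallest adjusted p in limma was 0.197. Leaving out 1 array, as for the median above and the counts that follow, leaves the experiments unbalanced between the groups. Without the block the count of members at the unadjusted p depended on the arrays. It was 2, 6 and 3 when 3α-THP replicate 1, 2 or 3 was left out, and 2 when V replicate 3 was. All were lower than V except MRPL1 without 3α-THP replicate 1. In the same order 5.44%, 3.12%, 3.69% and 3.29% of the tested rows were lower, and 4.34%, 3.06%, 2.23% and 2.19% higher.

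**Figure D3:**
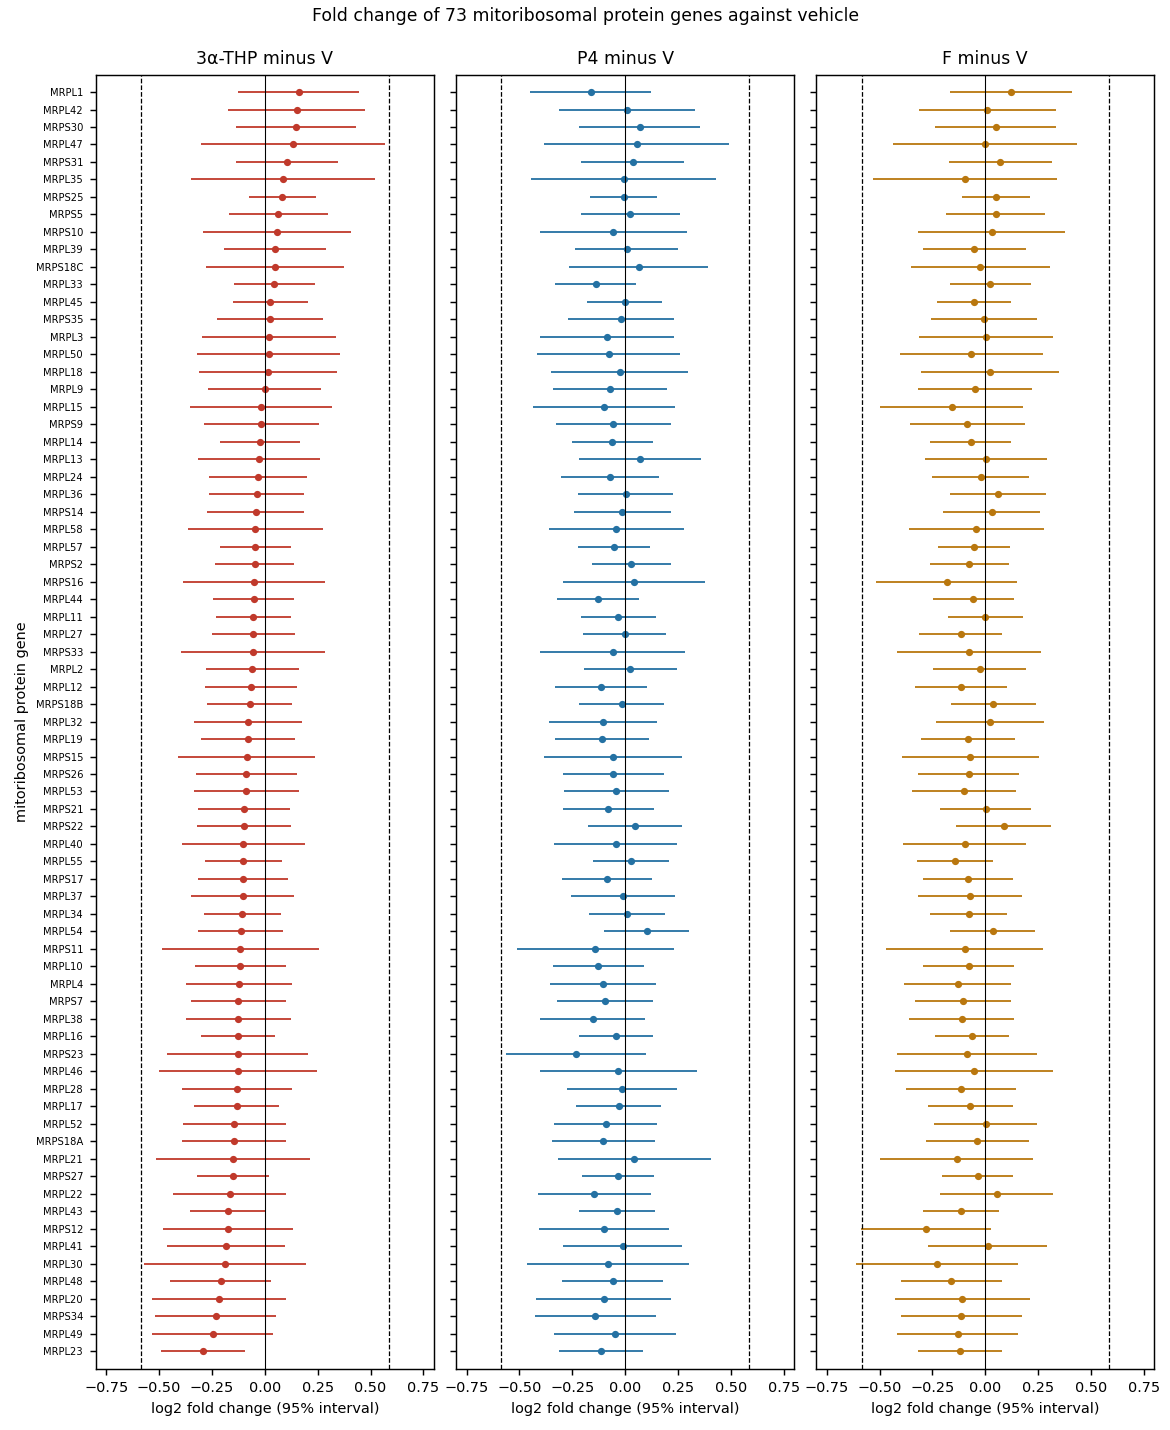
Log2 fold change against V (horizontal axis) with its 95% interval for each of the 73 members (vertical axis, ordered by the value with 3α-THP), with 3α-THP, P4 and F from left to right and dashed lines at a 1.5-fold change. The intervals are those of the fit without the experiment as a block. All lie within the dashed lines except those of MRPL30 and MRPS12 with F.

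With P4 the values lay near those of V too. None of the 73 members passed the threshold, beside 0.0236% of the tested rows, and 0 passed the unadjusted p in either direction, beside 0.914% higher and 0.905% lower. The median log2 fold change was -0.04, beside -0.01 over the tested rows, with 56 of 73 members negative, beside 56.1%. All members lay between -0.23 and 0.10, and all 73 intervals stayed within a 1.5-fold change (95.1% of the rows). MRPS23, a small-subunit protein found in mitochondria only, had 6.44, 6.93 and 6.73 with V and 6.51, 6.55 and 6.34 with P4. The groups overlapped, and the log2 fold change was -0.23 (SE 0.15). Without V replicate 1 it was -0.36, and MRPS23 was then the 1 member past the unadjusted p, beside 0.811% of the rows lower and 2.09% higher. With the experiment as a block MRPS23 was the 1 member that passed the unadjusted p, on the lower side, beside 1.98% of the rows lower and 1.82% higher, at an adjusted p in limma of 0.9997. MRPL44, which carries a fold of the ribonuclease III family, had 6.52, 6.59 and 6.72 with V and 6.49, 6.51 and 6.44 with P4, without overlap, at a log2 fold change of -0.13 (SE 0.089). MRPL1 was the other of 2 members whose P4 arrays lay below all V arrays, and 0 members had them above, beside 3.47% and 1.97% of the rows. MRPL33, a large-subunit protein with the smallest p among the negative values, stood at -0.14 (SE 0.089). On the positive side stood MRPL54 at 0.10 (SE 0.093), MRPL13 at 0.071 (SE 0.13) and MRPS30 at 0.070 (SE 0.13). The median of the members turned to 0.0040 without V replicate 2. That array had a median signal of the members of 7.63, beside 7.39 on each other V array. Leaving it out alone leaves the experiments unbalanced between P4 and V.

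With F, given at 100 nM and not at 10 nM as the other steroids were, none of the members passed the threshold either, beside 0.396% of the tested rows. At the unadjusted p 0 were higher and 0 lower, beside 2.58% and 2.11%. The median log2 fold change was -0.06, beside -0.02 over the rows, and 51 of 73 members were negative, beside 58.2%. The lowest value was that of MRPS12, the homolog of the bacterial protein of the decoding site that is altered in streptomycin resistance. MRPS12 had 6.13, 6.06 and 6.19 with V and 5.75, 6.17 and 5.62 with F. The F arrays of experiments 1 and 3 lay below all V arrays and that of experiment 2 lay among them, so that the groups overlapped. The log2 fold change was -0.28 (SE 0.14, limma adjusted p = 0.999). With the experiment as a block MRPS12 was the 1 member that passed the unadjusted p, beside 4.16% of the rows lower and 4.38% higher, at a limma adjusted p = 0.501. Without F replicate 2 its log2 fold change was -0.44, and it passed the unadjusted p.

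MRPL55, a large-subunit protein, had 7.35, 7.33 and 7.31 with V and 7.15, 7.21 and 7.20 with F, and its log2 fold change was -0.14 (SE 0.083). Its F arrays lay below all V arrays, as did those of MRPL43, and 0 members had them above, beside 5.51% and 3.6% of the rows. MRPL48 had a log2 fold change of -0.16 (SE 0.11). The smallest p among the positive values belonged to MRPL1 at 0.12 (SE 0.13), MRPS22, a small-subunit protein, at 0.087 (SE 0.10), and MRPS25 at 0.049 (SE 0.074). In the fit without the block, the interval reached past a 1.5-fold decrease in MRPS12 and MRPL30. It stayed within 1.5-fold in the other 71 members, beside 93.4% of the rows. MRPL30 had a log2 fold change of -0.23, with an SE of 0.18 in that fit and of 0.11 with the experiment as a block. Intervals with the block were not computed. Without V replicate 2, which leaves the experiments unbalanced here too, the median of the members with F turned to 0.0024.

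**Figure D4:**
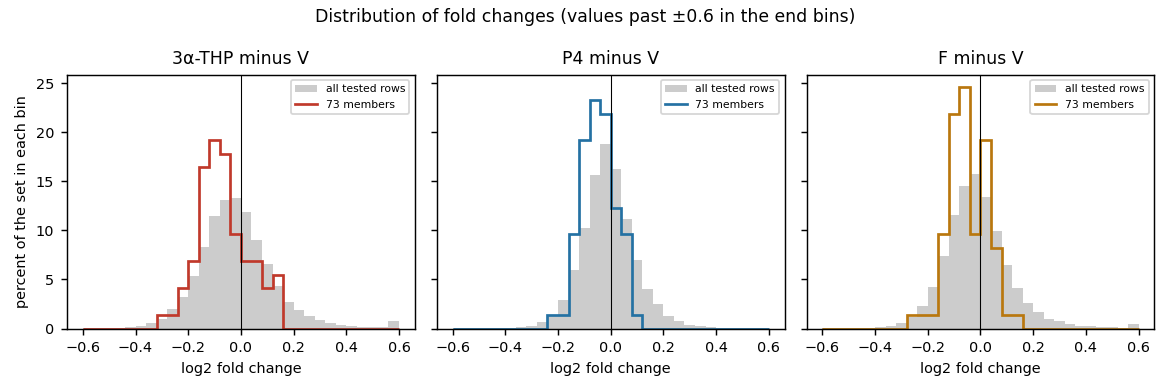
Percent of rows (vertical axis) in bins of the log2 fold change against V (horizontal axis) for all tested rows (grey) and the 73 members (outline), with 3α-THP, P4 and F from left to right. The outlines are narrower than the grey bars and their medians are -0.08, -0.04 and -0.06.

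3α-THP and its precursor P4, which differ by the reduction of the A ring, were compared directly since both were given at 10 nM for 72 h. None of the 73 members passed the threshold between them, beside 0.25% of the rows. At the unadjusted p MRPL1 was higher and MRPL54 lower with 3α-THP, beside 1.82% and 2.14% of the rows. MRPL1 had 5.14, 5.16 and 5.16 with P4, a much narrower range than the 3α-THP arrays, which overlapped with it, and the log2 difference was 0.32 (SE 0.13, 95% interval 0.035 to 0.61). MRPL54 had 5.838, 6.012 and 5.996 with P4 and 5.832, 5.725 and 5.638 with 3α-THP, with no overlap, and the log2 difference was -0.22 (SE 0.093, 95% interval -0.42 to -0.016). Both had a limma adjusted p of 0.999. Neither call held across the arrays. No member passed without 3α-THP replicate 3, without P4 replicate 2 or with the 2 groups fitted alone, MRPL54 passed and MRPL1 did not when P4 replicate 1 was left out, and neither passed without 3α-THP replicate 2 or P4 replicate 3. MRPL1 passed and MRPL54 did not under quantile and cyclic loess normalization and median centring. The arrays did not overlap in 5 members, of which MRPL33 was higher with 3α-THP and MRPL23, MRPL43, MRPL54 and MRPS27 were lower, beside 3.13% and 5.1% of the rows. With the experiment as a block MRPL33 joined them on the higher side, beside 4.2% of the rows higher and 4.8% lower, and the smallest adjusted p in limma was 0.445. The median difference over the members was -0.02 with 42 of 73 negative, beside 55.2% of the rows, and the interval was within 1.5-fold in 72 of the 73, beside 93.2%, with MRPL1 as the exception. The intervals for MRPL23 (-0.38 to 0.021) and MRPS27 (-0.29 to 0.051) included both no difference and a lower level with 3α-THP.

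F was given at another concentration, so its values stand beside those of the other steroids without a reading of the compounds. Between 3α-THP and F 0 members passed the threshold, beside 0.0566% of the rows, and at the unadjusted p 0 were higher and 0 lower, beside 1.22% and 1.07%. Of the 73 members 40 were lower with 3α-THP, beside 53.5% of the rows. The arrays lay apart in MRPL23 and MRPS27, both lower with 3α-THP (3.68% of the rows), and in 0 on the higher side (2.92%). With the experiment as a block MRPS22 was lower with 3α-THP than with F and 0 members were higher, beside 2.56% and 2.45%. Between P4 and F 0 passed the threshold, beside 0.0519% of the rows, and at the unadjusted p 0 were higher and 0 lower, beside 1.66% and 1.21%. With the block MRPS16, a small-subunit protein, was higher with P4 (2.95%) and MRPL1 and MRPL33 were lower (2.71%) than with F. These 6 comparisons used the same 12 arrays, and the p-values were adjusted over the rows of each comparison.

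The experiments differed more than the treatments in these genes. Summed over the members, the treatment accounted for 15.6% of the squared deviations between the 12 arrays and the experiment number for 55.3%, beside 22.8% and 43.4% over the tested rows. The median of the members was 7.63, 7.57, 7.49 and 7.52 with V, 3α-THP, P4 and F in experiment 2, and between 7.29 and 7.39 in the others. The array of experiment 2 was the highest of its treatment in all 4 treatments in 28 of the 73 members (10.6% of the rows) and the lowest in 0 (8.93% of the rows). In MRPS11 of the small subunit the arrays of experiment 2 read 8.49, 8.44, 8.36 and 8.53, and the other 8 arrays lay between 7.94 and 8.17. MRPL58, a peptidyl-tRNA hydrolase that became a part of the large subunit, read 8.28 to 8.37 in experiment 2 and 7.88 to 8.08 in the others. MRPS15 read 10.04 to 10.20 and 9.63 to 9.90 in the same order.

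**Figure D5:**
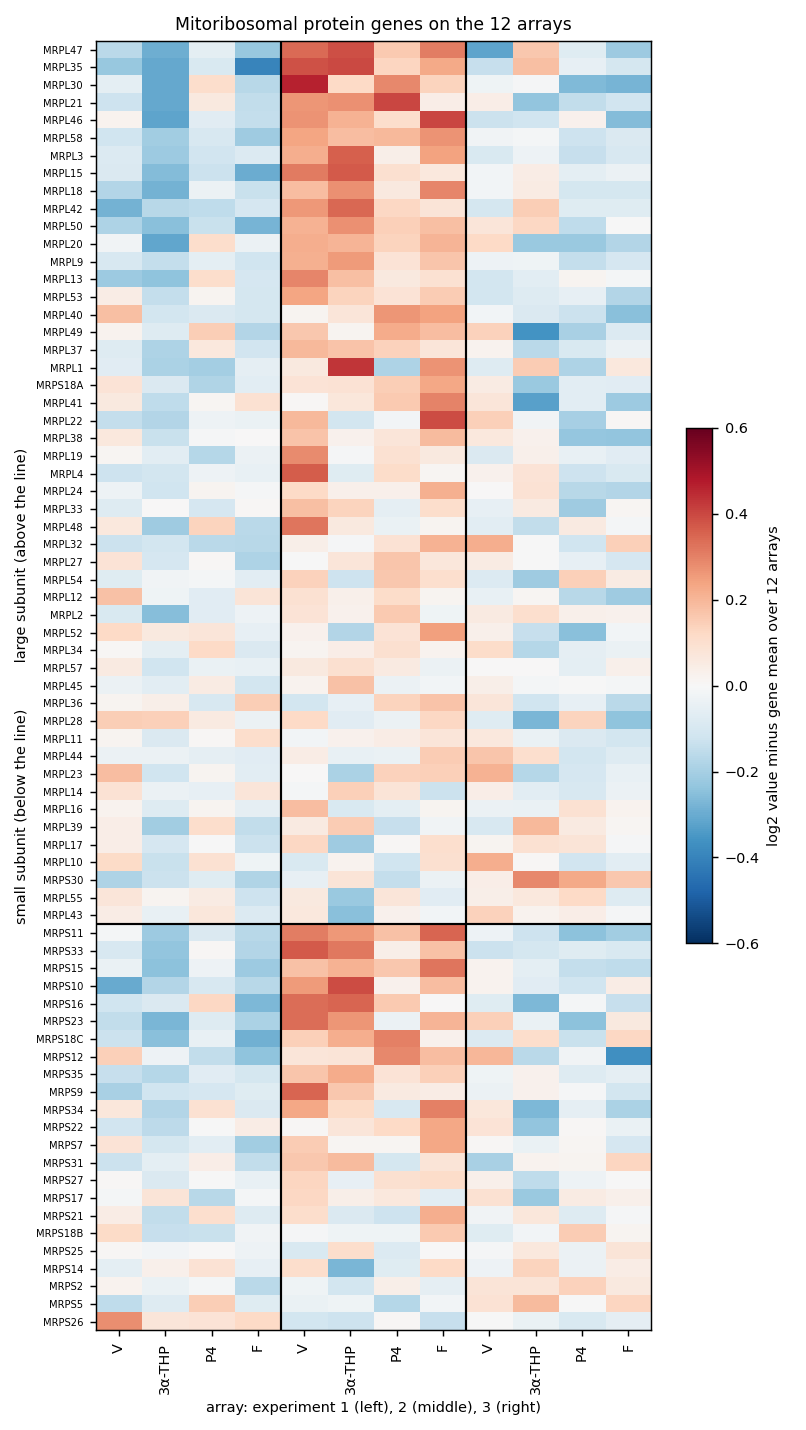
Log2 value minus the mean of the gene over the 12 arrays (colour) for the 73 members (vertical axis, large subunit above the line and small subunit below) on each array (horizontal axis, by experiment). The arrays of experiment 2 in the middle are above the mean in many of the members in all 4 treatments, for example at 8.36 to 8.53 in MRPS11.

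Against the V array of the same experiment, 59, 40 and 37 of the 73 members were lower with 3α-THP in experiments 1, 2 and 3, with median log2 differences of -0.11, -0.023 and -0.0034. With P4 the counts were 35, 50 and 51 and the medians 0.020, -0.087 and -0.089. With F they were 52, 39 and 51, and -0.074, -0.023 and -0.067. Of all tested rows, 65.7%, 50.9% and 52.2% were lower with 3α-THP in the same order, and 54.4%, 52.2% and 53.4% with P4. With F the shares were 57.9%, 49.6% and 57.0%. Thus the shift with 3α-THP was found mainly in experiment 1, where 65.7% of all tested rows were lower too. A value below V in all 3 experiments was found in 18 members with 3α-THP, 11 with P4 and 19 with F, beside 23.1%, 12.9% and 20.2% of the rows. A value above V in all 3 was found in 4, 1 and 4, beside 12.4%, 7.8% and 12.7%.

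The members are short genes, and gene length moved with the values for 3α-THP and F more than with those for P4. The median span on the genome was 8618 bases for the members and 24077 for the rows with 1 gene. As a description across genes, which are not independent and share the arrays, the correlation of the log10 span with the log2 fold change over the 73 members was 0.29 with 3α-THP, -0.021 with P4 and 0.25 with F, and over 19429 rows 0.167, 0.060 and 0.209. The 4687 other rows with a span between the quartiles of the members (4709 to 16590 bases) had median log2 fold changes of -0.058, -0.024 and -0.047, beside -0.08, -0.04 and -0.06 for the members. With a trend on gene length removed from each array, the medians of the members were -0.019, -0.032 and -0.026. Over the rows of that fit they were -0.0024, -0.0028 and -0.0023.

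The genes for 3 homologs of the same bacterial protein, MRPS18A of the large subunit and MRPS18B and MRPS18C of the small one, had log2 fold changes of -0.15 (SE 0.11), -0.07 (SE 0.093) and 0.047 (SE 0.15) with 3α-THP. With P4 they were -0.10, -0.016 and 0.065 and with F -0.037, 0.038 and -0.024, all with intervals that included 0. Of the 4 measured mitoribosomal proteins with other kinds of symbols (CHCHD1, DAP3, GADD45GIP1 and PTCD3), 0 passed the unadjusted p with any steroid. DAP3, a GTP-binding protein of the small subunit, had 0.052 with 3α-THP, -0.0092 with P4 and -0.12 with F on the log2 scale. For 70 members there was 1 row. The second row of MRPL36 had log2 fold changes of -0.10, -0.13 and -0.12 with 3α-THP, P4 and F, where the row used had -0.039, 0.0026 and 0.060, and the 2 rows of MRPL20 and the 3 of MRPS18B had equal values. RefSeq names a pseudogene after 38 of the members, whose RNA a row could share.

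The genes that serve the mitoribosome were taken as lists. None of the measured members of the lists of mitochondrial translation factors (16), aminoacyl-tRNA synthetases (19), mitoribosome assembly factors (27) and mitochondrial transcription and RNA processing (23) passed the threshold with any steroid. The threshold was passed by 0.679%, 0.0236% and 0.396% of the tested rows with 3α-THP, P4 and F. MTRF1, a release factor, passed the unadjusted p with 3α-THP at 0.22 (SE 0.082, limma adjusted p = 0.607) and with F at 0.20 (SE 0.082, limma adjusted p = 0.955). NOA1, a GTPase of mitoribosome assembly, had -0.16 (SE 0.074, limma adjusted p = 0.674) with 3α-THP. METTL15, which methylates the small ribosomal RNA, had 0.51 (SE 0.17, limma adjusted p = 0.911) with F, and MTERF1, a factor of mitochondrial transcription termination, 0.23 (SE 0.10, limma adjusted p = 0.999). These were the members of the 4 lists that passed the unadjusted p in a comparison with V. At that p 3.25% of the tested rows were higher and 4.09% lower with 3α-THP. The shares were 0.914% and 0.905% with P4 and 2.58% and 2.11% with F. With the experiment as a block, in the same order of lists, 2, 0, 3 and 1 were higher and 1, 1, 2 and 1 lower with 3α-THP. Of the tested rows 5.49% were higher and 7.91% lower. With P4 0 were higher in each list and 0, 0, 1 and 1 lower, and with F 1, 0, 1 and 1 were higher and 1, 1, 1 and 1 lower. The shares of the rows higher and lower were 1.82% and 1.98% with P4 and 4.38% and 4.16% with F.

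The families most like the mitoribosome were set beside it. With 3α-THP, 14 of 69 nuclear-encoded respiratory chain genes and 9 of 64 cytosolic ribosomal protein genes were lower at the unadjusted p, where 1 of the 73 members was, beside 4.09% of the tested rows, and 0 in either family passed the threshold. With P4 the counts were 1 and 0 (0.905% of the rows) and with F 5 and 0 (2.11%). With the experiment as a block they were 22 and 12 with 3α-THP, where 5 members were lower (7.91% of the rows), 2 and 0 with P4 (1.98%) and 9 and 1 with F (4.16%). The respiratory chain genes, which include the partners of the proteins that the mitoribosome makes, had a median log2 fold change of -0.14 with 3α-THP, -0.059 with P4 and -0.088 with F. COX5B, a subunit of cytochrome c oxidase, had the smallest p at -0.38 (SE 0.094, limma adjusted p = 0.406) with 3α-THP. The cytosolic ribosomal protein genes had medians of -0.088, -0.033 and -0.045. The median of the members with 3α-THP was -0.078. The interval of a gene reached 0.19 (median) to either side in the cytosolic genes and 0.24 in the members. In the respiratory chain genes it reached 0.23. A count at the unadjusted p depends on this width too. The counts alone therefore do not show a smaller shift in the members than in the cytosolic genes. The difference between the families was not tested.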

How the data were processed

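Total RNA of U87 cells under 4 treatments was measured on 12 arrays. The authors deposited log2 values for 33297 rows (transcript clusters), made with Affymetrix Expression Console 1.4 per the labels. The study's methods name quantile normalization in the Transcriptome Analysis Console and robust multiarray analysis in R, but neither they nor the labels say which of these, if any, made the deposited table. The 12083 rows without a gene name were not tested, and 1754 of the 21214 tested rows name several genes. Probes were named by the platform annotation, updated through RefSeq gene IDs (19429 of 19460 single-gene rows matched). Limma 3.58.1 in R 4.3.3 (lmFit and eBayes, prior degrees of freedom 4.73) was fitted with 1 mean per treatment, and its moderated test and Benjamini-Hochberg adjustment were used across all tested rows. The threshold of the study's methods, more than a 1.5-fold change and an unadjusted p under 0.05, was kept. The fit was tested on simulated data with independent arrays, which does not cover deviations that arrays of the same experiment share.

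The members and the gene lists were chosen with earlier results of these data known. The genes named in the text are the 3 members with the smallest p in each direction in each comparison with V, the 3 brightest and the 3 dimmest, the MRPS18 paralogs and, in other lists, those with the smallest p. Members named beside a count of 6 or fewer, and MRPS11, MRPS15, MRPL58, MRPL35 and MRPL52, were named after their values were seen. The study's design states independent experiments, and the replicate numbers of the labels were taken as these: the deviations from the treatment means correlated at 0.132 to 0.631 in 18 same-numbered pairs (36 other pairs, median -0.245), so the numbers pair the arrays. Values with the number as a block are given where they change a count by over 1.5 times. The samples are separate experiments of 1 line, and p-values measure the spread between them. Of the tested rows, 703 have values equal to another row. Alternatives changed the block, the arrays, the normalization, the rows, the test, the prior, the weights, the fold, the row per gene and the gene length trend. Promoters came from RefSeq (GRCh38.p14).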

Additional observations from a re-analysis of the deposited data

How the results depend on the processing

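Under the 28 other settings, the count of members past the threshold was 0 in every comparison except at a fold over 1.2, where it was 1 for 3α-THP vs V (MRPL23) and 1 for 3α-THP vs P4 (MRPL1). With the experiment as a replicate block, fixed or random (correlation 0.243), it was 0 in all 6 comparisons, and the fixed block gave 5, 1, 1, 3, 1 and 3 members at the unadjusted p for 3α-THP, P4 and F vs V, 3α-THP vs P4, 3α-THP vs F and P4 vs F. With array weights 7 members passed the unadjusted p with 3α-THP. The median log2 fold change against V kept its sign outside the runs that left out 1 array, which leave the experiments unbalanced. When 1 array was left out, it ranged from -0.11 to -0.033 with 3α-THP, from -0.074 to 0.0040 with P4 and from -0.12 to 0.0024 with F, and between steroids from -0.058 to 0.024 (3α-THP vs P4), from -0.061 to 0.049 (3α-THP vs F) and from -0.033 to 0.070 (P4 vs F). The small medians between steroids also changed sign elsewhere: 3α-THP vs F was 0.0040 with cyclic loess, 0.0065 with array weights, 0.00097 without the gene length trend and 0.0027 without the arrays of experiment 2, a setting chosen after seeing the data. P4 vs F was -0.00011 with median centring and -0.011 without the gene length trend, which gave 0.010 for 3α-THP vs P4. The cause was not tested. Without the arrays of experiment 2, 5 members were lower at the unadjusted p with 3α-THP (MRPL20, MRPL23, MRPL41, MRPS12 and MRPS34), 2 with P4 (MRPL23 and MRPS12) and 3 with F (MRPL23, MRPL40 and MRPS12, the last at -0.47), and 0 were higher. In that setting 3.52%, 2.31% and 3.40% of the tested rows were lower, and 3.66%, 1.89% and 4.10% higher. Of 486 values of named genes, 467 kept their sign and their side of the unadjusted p, 17 passed it newly, and 2 changed sign: MRPL13 with P4 (-0.031 without V replicate 1, up to 0.22) and MRPS30 with P4 (-0.043 without P4 replicate 3, up to 0.14).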

Other observations

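Many mitoribosomal protein genes start back to back with another gene. Among the 66 members with a promoter entry, 24 (36.4%) had the start of a gene on the other strand within 1000 bases, beside 19.9% of coding genes, and 18 of these neighbours were coding and measured. None of the 18 passed the threshold with any steroid, beside 0.679%, 0.0236% and 0.396% of the tested rows with 3α-THP, P4 and F. MRPL46 and MRPS11 are neighbours of each other, with starts 320 bases apart, and had log2 fold changes of -0.13 (SE 0.17) and -0.12 (SE 0.17) with 3α-THP. MRPL49 starts 49 bases from FAU, which encodes a ubiquitin-like protein fused to a cytosolic ribosomal protein. MRPL49 had -0.25 (SE 0.13) and FAU -0.21 (SE 0.090) with 3α-THP. MRPS12 starts 181 bases from SARS2, the mitochondrial seryl-tRNA synthetase, and had -0.28 (SE 0.14) with F where SARS2 had 0.0074 (SE 0.069). MRPS27 starts 133 bases from PTCD2, which had 0.072 (SE 0.084) with 3α-THP where MRPS27 had -0.15 (SE 0.078). HELQ, the neighbour of MRPS18C, had 0.24 (SE 0.091) with 3α-THP and 0.21 (SE 0.091) with P4, and PIERCE1, the neighbour of MRPS2, had -0.22 (SE 0.098) with 3α-THP. FAU, HELQ and PIERCE1 passed the unadjusted p in limma in these comparisons and no other neighbour did. At that p 4.09% of the tested rows were lower and 3.25% higher with 3α-THP, and 0.905% and 0.914% with P4. These pairs were chosen after their values were seen.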
